A study of Homo sapiens with 16 samples.

Results

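Apolipoproteins coat the lipid particles that enterocytes and hepatocytes secrete, and the fatty acid binding proteins carry lipid inside the same cells. The genes described here are APOA1, APOA4, APOB, APOC3, APOE, APOH, FABP1 and FABP2. They were found on the array as every non-control probe annotated with 1 of these 8 symbols, without regard to any measured value. This gave 9 probes of 41000 for the 8 genes, of 30971 names carried by the probes tested, with APOA4 carried by 2 probes and each of the others by 1. Copies of the APOA1, APOB and APOE probes were printed on 10 spots per array, and the other 6 probes on 1 spot.

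The study asked how gliadin peptides act on the intestinal epithelium, using Caco-2 cells, a human line from a colon adenocarcinoma that can be grown into an enterocyte-like layer but was used here undifferentiated. All cells belonged to this 1 line and were kept in MEM with reduced fetal calf serum, exposed for 6 h, and lifted with trypsin at harvest. There were 4 conditions with 4 arrays each. MED-CTL cells received medium alone. The p31-43 cells received this synthetic gliadin peptide at 150 µg/ml. PT-G cells received gliadin digested with pepsin and trypsin, and PT cells received a blank digest, that is, both enzymes carried through the same steps with no substrate. The enzymes of the digests had been heat-inactivated. RNA was hybridised to single-colour arrays. The labels number the 4 arrays of a condition as replicates, and the study's methods describe 4 independent experiments. Runs, as used below, were read from the names of the deposited arrays, which put 1 array of every condition in each of 4 runs. The run and the replicate number of the labels are the same except that MED-CTL replicate 1 is in run 2 and MED-CTL replicate 2 in run 1, and every value given by run rests on this reading. By the same methods the cells differed by 1 or 2 passages from experiment to experiment, and whether a run was such an experiment is not stated.

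APOB is the structural backbone of chylomicrons and VLDL and is loaded with lipid while it is still being made. APOA1 and APOA4 are surface proteins that activate the enzyme which esterifies cholesterol in plasma, APOC3 inhibits lipoprotein lipase, and APOE is a ligand of lipoprotein receptors. APOH, also called beta-2-glycoprotein I, is a secreted phospholipid-binding protein of liver. FABP1, the liver-type fatty acid binding protein, and FABP2, the intestinal type, bind fatty acids in the cytosol of enterocytes. APOA1, APOC3 and APOA4 are neighbours on chromosome 11, with APOA5 close by. Many of these genes are known targets of the hepatocyte nuclear factor HNF4A, of PPARA, which is activated by fatty acids, and of NR2F2, also called COUP-TFII, which competes for the same promoter elements.

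Of the 8 genes, 5 had a promoter sequence in the RefSeq table used (build GRCh38.p14), namely APOA4, APOE, APOH, FABP1 and FABP2. The 250 bases before the start of FABP1 and of APOH are shown, since both genes varied together over the arrays and the nuclear receptors PPARA and NR2F2 are taken up below. Capitals mark the letters of a nuclear receptor half-site, AGGTCA, and of a TATA box, TATAAA, on either strand. The minus strand of chr2:88128063-88128312 holds the FABP1 window and the minus strand of chr17:66229416-66229665 that of APOH.
FABP1: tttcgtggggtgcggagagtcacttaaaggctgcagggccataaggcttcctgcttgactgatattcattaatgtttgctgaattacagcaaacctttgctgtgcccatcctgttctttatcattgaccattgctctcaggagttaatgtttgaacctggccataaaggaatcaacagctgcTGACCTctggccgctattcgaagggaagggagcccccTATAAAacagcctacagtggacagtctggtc
APOH: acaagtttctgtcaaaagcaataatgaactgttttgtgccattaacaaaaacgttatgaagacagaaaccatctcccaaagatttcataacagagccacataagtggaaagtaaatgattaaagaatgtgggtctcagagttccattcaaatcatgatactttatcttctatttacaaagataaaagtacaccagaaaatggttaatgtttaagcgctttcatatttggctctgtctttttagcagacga
In the FABP1 window the letters AGGTCA stood in the opposite orientation, from 68 bases before the start, and TATAAA from 31 bases before it. Of all 35116 promoter windows of 250 bases, 12.1% hold AGGTCA and 10.7% hold TATAAA, on either strand. The APOH window, with no capitals, holds neither, and they were not found in the windows of APOA4, APOE and FABP2 either. The letters CAAAGTCCA, a form of the HNF4 site that 0.325% of all windows hold, were in none of the 5. A match of letters is a description of the sequence and not a binding site.

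All values below are log2 intensities after quantile normalization, so a difference of 1 is a doubling, and levels are compared only within a probe. The arrays had median intensities between 153 and 410 with a local background between 48 and 65, and 27660 to 33947 spots per array well above background. Of the cell type markers, each read by its probe above background on the most arrays, the 9 epithelial ones found were above background on every array. Of 10 markers of differentiated enterocytes, 6 were, FABP2 was above it on no array, and 3 were above it on some. Of 5 leukocyte markers 4 were above background on every array, while PTPRC, which defines leukocytes, was on none. Of 8 goblet, enteroendocrine and Paneth cell markers 6 were above it on every array, and of 7 fibroblast and endothelial markers 4, with COL1A2 and CDH5 on none. The probes of APOA1, APOA4, APOB, APOC3, APOE, APOH and FABP1 were well above background on all 16 arrays, and no spot of them was saturated. The FABP2 probe was above background on 0 of 16 arrays, with a median foreground of 47 to 73, and thus carries only a bound.

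The first question was whether the gliadin digest, the enzyme blank or the peptide changed these transcripts against medium. None of the 9 probes reached the study's threshold, a nominal p under 0.01 in limma, with PT-G, PT or p31-43. None reached a nominal p under 0.05, and no probe had groups that did not overlap. Over all 40982 probes tested, 3.44% passed with PT-G, 3.64% with PT and 0.388% with p31-43. Groups did not overlap in 3.87%, 5.08% and 1.39% of all probes, respectively. A difference in bulk RNA cannot tell fewer cells of a kind from less RNA per cell.

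APOB, the particle backbone, had condition means within 0.10 of each other. Its log2 intensities by run were 11.08, 11.36, 12.12 and 12.41 in MED-CTL. With PT-G they were 10.99, 11.38, 12.19 and 12.33. With PT they were 11.09, 11.65, 12.19 and 12.00, and with p31-43 10.73, 11.41, 12.40 and 12.03. Every condition thus had its 2 low values in runs 1 and 2 and its 2 high values in runs 3 and 4. The log2 difference from MED-CTL was -0.02 with PT-G (SE 0.42), -0.01 with PT (SE 0.42) and -0.10 with p31-43 (SE 0.42). When the run was entered as a block the SE of these differences dropped to 0.12, a 3.48-fold smaller error. In that fit 0 of the 9 probes had a nominal p under 0.01, against 9.16% of all probes with PT-G and 10.3% with PT. The 95% interval of the PT-G effect on APOB was then -0.28 to 0.25, and that of the PT effect -0.27 to 0.25.

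APOA1, the main protein of HDL, had the widest spread within a condition. In MED-CTL it measured 15.64, 16.45, 14.32 and 16.35 in runs 1 to 4, and 15.85, 16.68, 16.50 and 16.02 with PT. Values with PT-G were 16.12, 16.46, 14.96 and 16.32, and with p31-43 they were 15.86, 16.53, 15.84 and 16.35. In run 3 the MED-CTL and PT-G arrays were the lowest of their conditions, and the PT array of that run was 2.18 above the MED-CTL array. Differences from MED-CTL of 0.57 with PT (SE 0.43, limma, adjusted p = 0.797), 0.45 with p31-43 (SE 0.43) and 0.28 with PT-G (SE 0.43) did not pass. Without MED-CTL replicate 3, the array of run 3, the PT value was 0.12, the p31-43 value -0.0017 and the PT-G value -0.18, and without PT-G replicate 3 the last was 0.61. In run 3 the order of APOA1 (MED-CTL, PT-G, p31-43, PT) was also that of the raw median intensity of the arrays, 153, 198, 268.5 and 410, and the PT array of that run lay on another slide than the other 3. With slide as a block the PT value was 0.25 (SE 0.24), against 0.28 with PT-G and 0.45 with p31-43. The part of the raw intensity in the result was not tested. The 10 APOA1 spots on an array had a median SD of 0.0926, against an SD of 0.98 between the 4 MED-CTL arrays.

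APOC3, the lipoprotein lipase inhibitor, measured 11.07, 12.35, 11.24 and 12.41 in the MED-CTL arrays of runs 1 to 4 and 11.36, 12.54, 12.47 and 12.43 with PT. With PT-G it measured 11.51, 12.30, 11.53 and 12.70. The p31-43 arrays gave 11.01, 12.62, 11.66 and 12.57. Runs 2 and 4 were high and run 1 was low in all conditions, and run 3 was low except with PT. The difference of PT from MED-CTL was 0.43 (SE 0.44, limma, adjusted p = 0.856) and lay above 0 in 4 of 4 runs, from 0.019 to 1.23. By the replicate numbers of the labels, PT replicate 1 (11.36) lay below MED-CTL replicate 1 (12.35), and the remaining PT replicates above theirs. With run as a block the SE of the PT difference was 0.19 and its nominal p 0.0395, which is over the threshold, with an adjusted p of 0.209. Over the fits without 1 array the value lay between 0.20, without MED-CTL replicate 2, and 0.71, without PT replicate 1, and with slide as a block it was 0.18.

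FABP1 had positive differences from MED-CTL in all 3 comparisons, 0.28 with PT-G, 0.32 with PT and 0.22 with p31-43 (SE 0.23 each), none past the threshold. The MED-CTL arrays measured 14.10, 14.96, 14.20 and 14.58 by run. Those with PT measured 14.36, 15.07, 14.80 and 14.89, those with PT-G 14.41, 14.81, 14.47 and 15.26, and those with p31-43 14.33, 15.03, 14.60 and 14.78. The PT and p31-43 arrays were each above the MED-CTL array of their run in 4 of 4 runs, and the PT-G array in 3 of 4. By the replicate numbers of the labels this differs. The replicate 1 arrays of PT (14.36), PT-G (14.41) and p31-43 (14.33) lay below MED-CTL replicate 1 (14.96), and the remaining replicates above theirs. The 3 comparisons share their MED-CTL arrays. With run as a block the nominal p was 0.0200 with PT (limma, adjusted p = 0.145) and 0.0378 with PT-G (adjusted p = 0.243), so that FABP1 too stayed over the threshold of 0.01. Without 1 array the value lay between 0.20 and 0.49 with PT, 0.10 and 0.44 with PT-G, and 0.10 and 0.39 with p31-43. The extremes came without MED-CTL replicate 1 or 2 and, for the lowest PT-G value, without PT-G replicate 4.

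APOH, APOE and the brighter APOA4 probe had differences from MED-CTL between -0.06 and 0.11 in all 3 comparisons. APOH, the phospholipid-binding plasma protein, averaged 14.45 ± 0.49 (SD, n = 4) in the PT-G arrays, 14.58 ± 0.58 in the PT arrays, 14.47 ± 0.62 in the p31-43 arrays and 14.48 ± 0.60 in MED-CTL. APOE averaged 16.76, 16.83, 16.77 and 16.79 in the same order, with SDs of 0.14 to 0.22. The brighter APOA4 probe averaged 8.22, 8.26, 8.21 and 8.27. The second APOA4 probe, which averaged 6.90 in MED-CTL, 6.94 with PT-G and 6.83 with PT, correlated with the brighter one at r = -0.29 over the 16 arrays, so the probes disagreed on how the arrays rank. FABP2 had group means of 5.80 to 5.82 and no level above background to compare.

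**Figure D1:**
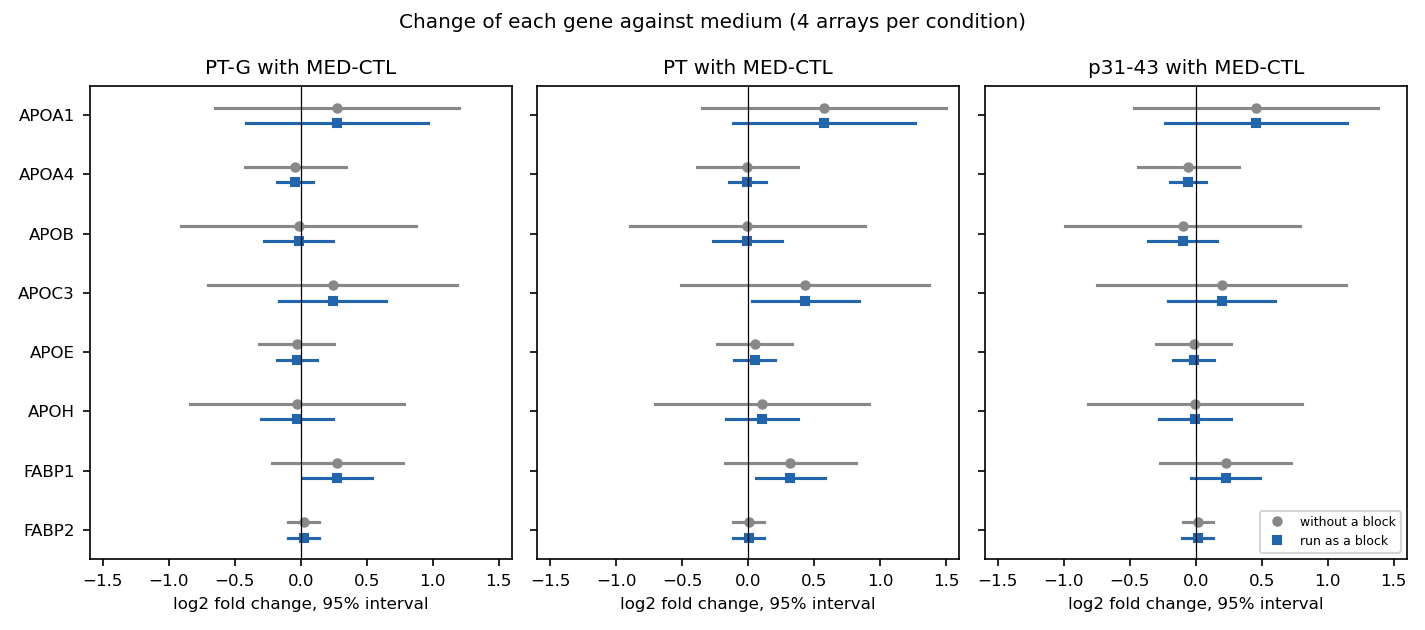
Log2 fold change of each gene (brightest probe) against MED-CTL, with 95% intervals, in the fit without a block (grey circles) and with run as a block (blue squares); 4 arrays per condition. All grey intervals include 0, and with the block the APOB, APOH and APOA4 intervals narrow around 0 while those of FABP1 with PT (0.06 to 0.58) and PT-G (0.02 to 0.54) and of APOC3 with PT (0.02 to 0.84) lie above it. The blue intervals rest on the runs read from the names of the arrays.

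The second question was what gliadin added to the enzyme mixture. In PT-G with PT, 0 of the 9 probes had a nominal p under 0.01 or under 0.05 (limma), where 0.0903% of all probes passed the former. The largest difference was that of APOA1, -0.30 (SE 0.43), followed by APOC3 at -0.19 (SE 0.44) and APOH at -0.13 (SE 0.38). These did not hold their size, as slide as a block gave 0.02, 0.06 and -0.0083, and the fits without 1 array gave -0.46 to 0.04, -0.47 to -0.02 and -0.42 to 0.05. APOE was lower with PT-G than with PT in 4 of 4 runs, by 0.0078 to 0.159, with a mean difference of -0.08 (SE 0.13). The digests were also compared with the peptide, which uses no MED-CTL array. None of the 9 probes passed in PT-G with p31-43, where 3.73% of all probes did, nor in PT with p31-43, where 3.15% did. Over the members the median size of the log2 difference was 0.038 in PT-G with MED-CTL, 0.069 in PT with MED-CTL and 0.098 in p31-43 with MED-CTL. Over all probes it was 0.0996, 0.116 and 0.081.

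The larger part of the variation of most of these transcripts lay between runs. When the sum of squares of each probe over 16 arrays was split, runs held 93.4% for APOB, 92.5% for APOA4, 91.0% for APOH, 80.3% for APOE and 80.3% for APOC3. They held 69.0% for FABP1 and 49.1% for APOA1. Conditions held 0.539% for APOB, 1.08% for APOA4 and 1.07% for APOH, and at most 14.3%, for FABP1. Over the probes above background on every array the median was 55.3% between runs and 14.1% between conditions. For the second APOA4 probe the runs held 12.5%, and for FABP2, at background, 10.3%. These shares are descriptions of 4 runs, and culture, harvest, labelling and array handling of a run cannot be told apart.

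**Figure D2:**
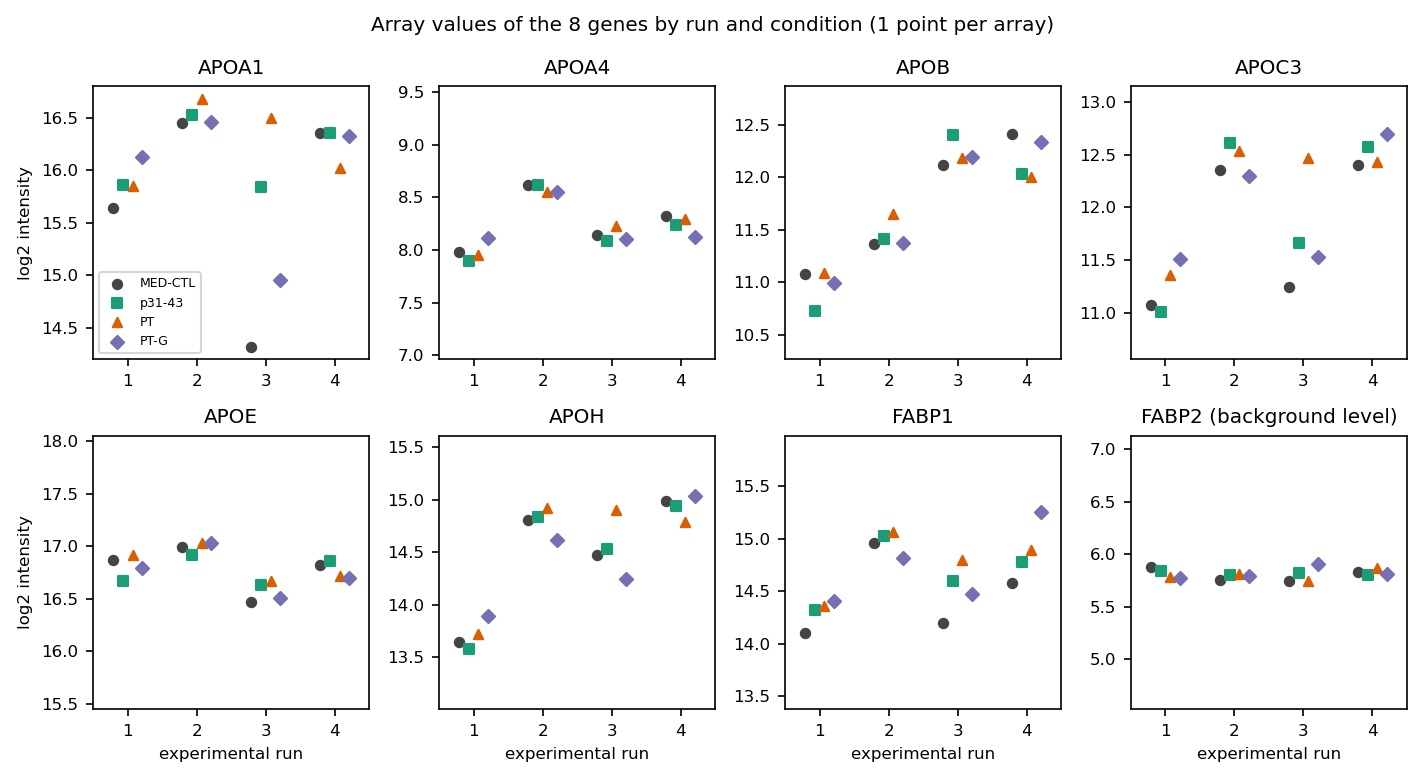
Log2 intensity of each gene (brightest probe) on every array, by run, with symbols for the 4 conditions; each panel spans the same log2 range. The symbols of a run lie together and the runs differ for APOB and APOA4, the 4 conditions spread widely for APOA1 in run 3, and FABP2 stays between 5.74 and 5.91.

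APOB averaged 11.21 over the 8 arrays of runs 1 and 2 and 12.21 over those of runs 3 and 4, a log2 difference of 1.00 or 2.00-fold. The ranges, 10.73 to 11.65 and 12.00 to 12.41, did not overlap, which held for 1 of the 9 probes and for 6.27% of all probes. APOH averaged 13.71 in run 1 and 14.79, 14.54 and 14.93 in the others. APOC3 alternated, with 11.24, 12.45, 11.73 and 12.53, and FABP1 was likewise higher in runs 2 and 4, with 14.30, 14.97, 14.52 and 14.88. For APOA4 the run means were 7.99, 8.59, 8.14 and 8.24. APOE ran at 16.81, 16.99, 16.57 and 16.77, and APOA1 at 15.87, 16.53, 15.40 and 16.26, each lowest in run 3. With 2 runs on a side, no test of these differences was made.

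Run 1 was the lowest of the 4 for 5 of the 7 genes above background, against 17.8% of all probes above background. A list of other liver-type secreted proteins, chosen as ALB, AFP, the fibrinogen chains and the like, had its lowest mean in run 1 for 14 of its 15 genes above background. Of the other lists, run 1 was lowest for 7 of 21 other apolipoproteins and lipid carriers, 4 of 22 genes of lipoprotein assembly, 7 of 15 of lipid uptake and 3 of 28 regulators. Among marker probes above background it was lowest for 3 of 6 of enterocytes and 3 of 4 of fibroblasts and endothelium. For leukocytes it was 2 of 4, for goblet, enteroendocrine and Paneth cells 3 of 10, and for epithelium 2 of 13. Albumin averaged 12.98 in run 1 and 14.40, 14.72 and 14.71 in the later ones. The fibrinogen chain FGB averaged 10.28, 10.98, 11.79 and 11.26, and haptoglobin, HP, 9.68, 11.04, 11.03 and 10.67. In the same run order the enterocyte marker SI had 8.25, 8.73, 9.25 and 9.07. DPP4 had 11.85, 12.06, 12.59 and 12.23 and LCT had 7.28, 7.68, 7.88 and 7.33. These 3 enterocyte markers were all lowest in run 1 and highest in run 3. The other 3 were not lowest in run 1. ALPI, with 7.89, 8.35, 7.64 and 7.84, and MGAM were lowest in run 3, and ANPEP in run 4. The 6 enterocyte markers thus did not share 1 order. In none of the 6 comparisons did a probe of the liver-type list pass, of 24 tested (limma, nominal p under 0.01), and 1 did with PT when run was a block.

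**Figure D3:**
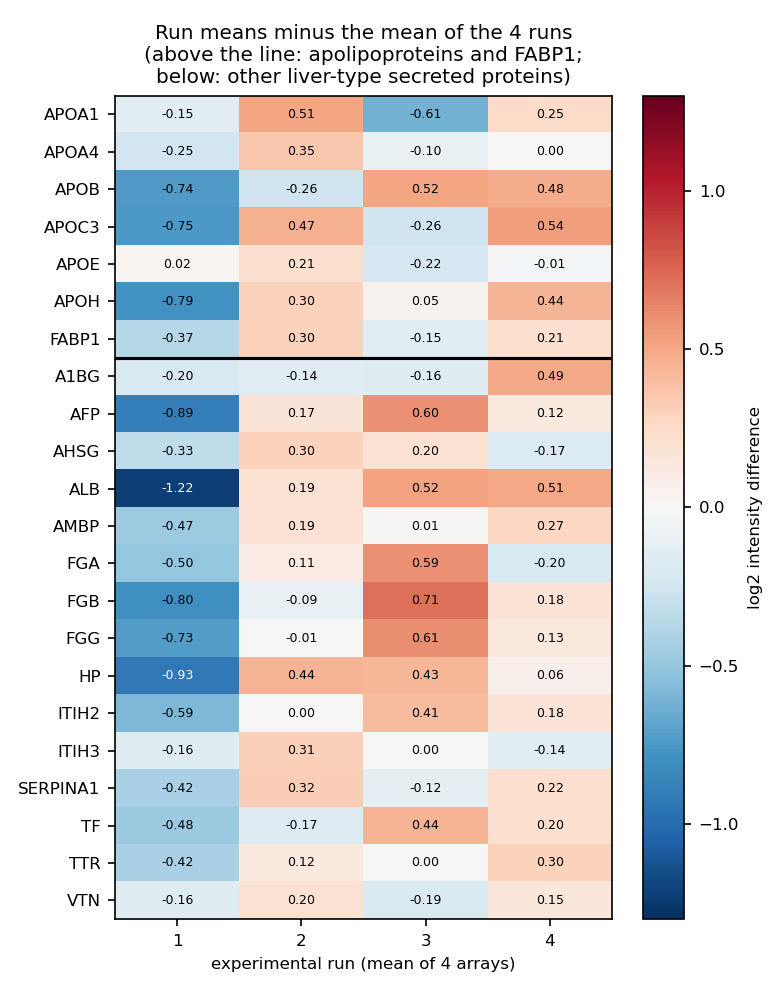
Mean log2 intensity per run (4 arrays) minus the mean of the 4 runs, for the 7 genes above background and, under the line, 15 other liver-type secreted proteins. Run 1 is lowest for 5 of the 7 and 14 of the 15, and the APOB row holds -0.74 in run 1 and 0.52 in run 3.

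Among the members, APOC3 correlated with FABP1 (Pearson r = 0.916) and with APOH (r = 0.914) over the 16 arrays, and APOH with FABP1 at r = 0.805. After run means were removed these were 0.740, 0.819 and 0.527. APOA1 and APOC3, neighbours on chromosome 11, correlated at 0.715, and at 0.851 with run means removed. Without the 4 arrays of run 3, where most of the APOA1 spread within a run lay, the latter was 0.640, a fit added after the values were seen. APOA4, on the other side of APOC3, correlated with APOA1 at 0.544 on its brighter probe, and at 0.218 with run means removed. On its dimmer probe these were -0.10 and -0.08. APOB and APOE went opposite ways, with r = -0.465, though at 0.470 within runs. All of these values share arrays, runs and normalization and are given without a test.

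The genes most like each member were looked for among 18426 probes above background on every array, by Pearson r over 16 arrays. For APOC3 they included APOM, another apolipoprotein (r = 0.970), and GSTA2, a glutathione transferase (r = 0.966). APOA1 was most like HPN, a membrane serine protease (r = 0.979), also with run means removed (r = 0.972). Closest to APOB was LAMA1, a laminin chain (r = 0.982). Closest to APOH was UTS2, urotensin (r = 0.983), and ORM2, an acute-phase protein, followed at r = 0.968. FABP1 was nearest to IFITM1, an interferon-induced membrane protein (r = 0.927), APOE to MEGF6 (r = 0.952) and APOA4 to ECHDC2 (r = 0.936). With run means removed, r was 0.691 for APOB with LAMA1 and 0.508 for APOA4 with ECHDC2. FABP2, at background, reached no more than 0.696.

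The genes around the members were then counted by list, first without a block. In that fit 3.44% of all probes passed with PT-G, 3.64% with PT and 0.388% with p31-43. With run as a block, where 9.16% of all probes passed with PT-G, 10.3% with PT and 1.38% with p31-43, the counts, made after the other values were seen, were larger in most lists. For other apolipoproteins and lipid carriers they were then 1, 4 and 1 probes, all higher. For lipoprotein assembly and triglyceride synthesis 2 rose and 2 fell with PT-G, 3 rose and 3 fell with PT, and 0 passed with p31-43. For lipid uptake and efflux 2 rose and 1 fell with either digest and 0 passed with p31-43. Of 48 probes for other apolipoproteins and lipid carriers, 0 passed with PT-G or p31-43 and 1 rose with PT. That was APOA5, by 0.22 (SE 0.06, limma, adjusted p = 0.176), which was above background on 12 of 16 arrays. This call was lost without MED-CTL replicate 4, PT replicate 2 or PT replicate 3, and also when dim probes were filtered out, arrays were scaled by the median, or only 2 conditions were fitted. The value lay between 0.10, with median scaling, and 0.58, with background-subtracted signal. Of 33 probes for lipoprotein assembly and triglyceride synthesis, 1 rose with PT-G, PLIN2, the lipid droplet coat protein, by 0.56 (SE 0.16, limma, adjusted p = 0.161), and 0 passed with PT or p31-43. With run as a block PLIN2 also rose with PT, by 0.32 (limma, adjusted p = 0.0173), and its PT-G change had an adjusted p of 8.66e-04. The PT-G call without a block was lost without MED-CTL replicate 2, PT-G replicate 3 or PT-G replicate 4, with values of 0.43 to 0.67, and in the fit of only 2 conditions. MTTP, which loads lipid onto APOB, had log2 differences of -0.03 with PT-G and -0.17 with PT (SE 0.30).

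Of 29 probes for lipid uptake and efflux, 1 rose with PT-G, 2 rose with PT, and none fell with either or passed with p31-43. LRP8, the APOE receptor 2, rose by 0.38 with PT-G and by 0.37 with PT on the dimmer of its 2 probes (SE 0.12, limma, adjusted p = 0.233 and 0.255). The brighter LRP8 probe gave 0.22 with PT-G and 0.0029 with PT (SE 0.20), which did not pass. CD36, the fatty acid translocase, rose by 0.73 with PT (SE 0.22, limma, adjusted p = 0.183) on a probe above background on 3 of 16 arrays. On that probe the SD was 0.64 over the PT arrays and 0.03 to 0.05 in the other conditions. The other CD36 probe, above background on 0 of 16 arrays, gave -0.016 with PT. The LRP8 calls were lost in 5 of the 16 fits without 1 array with PT-G and in 9 with PT, with values of 0.32 to 0.44 and 0.29 to 0.44. They were also lost in 5 of 9 alternatives, but held with run as a block (adjusted p = 0.0115 and 0.0132). The CD36 call was lost without MED-CTL replicate 3, PT replicate 1 or PT replicate 2, with median scaling and in the fit of only 2 conditions. Its value went from 0.53 without 1 array to 3.47 with background-subtracted signal.

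Of 61 probes for regulators of apolipoprotein genes, 3 rose and 4 fell with PT-G, where 3.44% of all probes passed. With PT 3 rose and 3 fell, against 3.64% of all probes, and with p31-43 0 passed, against 0.388%. PPARA rose on 3 of its 4 probes, by 0.91 with either digest on the brightest (SE 0.13, limma, adjusted p = 0.0039 with PT-G and 0.00424 with PT). NR2F2 fell on both probes, by 0.94 and 0.79 with PT-G (SE 0.21 and 0.14, adjusted p = 0.0514 and 0.0164). With PT it fell by 0.94 and 0.62 (adjusted p = 0.0550 and 0.0646). RXRB, a partner of PPARA, fell by 0.70 with PT-G and by 0.69 with PT (SE 0.23, adjusted p = 0.264 and 0.263), and these calls were lost in 9 and 11 of the 16 fits without 1 array, with values of -0.80 to -0.48 and -0.83 to -0.53. With run as a block they had adjusted p = 0.00298 and 0.00332. The calls of both NR2F2 probes and of the 2 brighter PPARA probes held in all 16, while that of the third PPARA probe with PT was lost in 4. With run as a block 6 probes of the list rose and 11 fell with PT-G, where 9.16% of all probes passed. In the same fit 6 rose and 9 fell with PT, where 10.3% did. Without a block, 2 probes of the list rose and 4 fell in PT with p31-43, where 3.15% of all probes passed. In PT-G with p31-43, where 3.73% passed, 2 rose and 7 fell. CEBPA, a factor of lipid-storing and liver cells, fell there by 0.80 and 0.79 on 2 of its 3 probes (SE 0.23 and 0.21, limma, adjusted p = 0.139 and 0.119). The former call was lost without p31-43 replicate 2, PT-G replicate 3 or PT-G replicate 4 and with background-subtracted signal. Against MED-CTL these probes gave -0.53 and -0.45 with PT-G and 0.28 and 0.35 with p31-43, none of which passed without a block. With run as a block the PT-G differences of these probes passed (limma, adjusted p = 0.0251 and 0.0590), and those with p31-43 did not. The third CEBPA probe gave -0.31 in PT-G with p31-43, and -1.93 with PT-G and -1.62 with p31-43 against MED-CTL (SE 1.45), none of which passed. The paper reports CEBPA as lower with PT-G than with medium on its arrays. By qRT-PCR it reports similar values with PT-G, with PT and with other digests without gliadin.

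PPARA, on its brightest probe, measured 8.70, 9.08, 8.79 and 8.51 in the MED-CTL arrays of runs 1 to 4, and 9.78, 9.94, 9.54 and 9.44 with PT. With PT-G it measured 9.62, 9.70, 9.72 and 9.70, and with p31-43 8.92, 8.98, 9.05 and 8.67. All 8 arrays of the digests were above all 8 of the others. NR2F2 went the other way, on its brighter probe from 14.71, 14.32, 15.24 and 14.23 in MED-CTL to 13.92, 13.51, 13.46 and 13.86 with PT. Its PT-G arrays gave 13.73, 13.39, 14.09 and 13.53 and its p31-43 arrays 14.43, 14.17, 14.53 and 14.40, so that the digests lay below all others. How many of all probes separate the digests from the others in this way was not counted. On the same arrays FABP1, whose window holds AGGTCA, a half-site that nuclear receptors such as PPARA and NR2F2 bind, differed from MED-CTL by 0.32 with PT, 0.28 with PT-G and 0.22 with p31-43, none of which passed. With p31-43 the brightest PPARA probe gave 0.13 and the NR2F2 probes -0.24 and 0.07, which did not pass either. Conditions held 87.5% of the variation of the brightest PPARA probe and runs 7.15%, while runs held 69.0% for FABP1. For the brighter NR2F2 probe these shares were 70.7% and 13.8%. PPARA and NR2F2 were named because they passed between conditions, so a large share between conditions follows from that choice. Whether the PPARA and NR2F2 differences bear on the members was not tested. HNF4A had differences from MED-CTL of -0.44 to 0.12 with the digests on its 3 probes, and none passed. Against p31-43, 1 of these probes passed when run was a block. It gave -0.42 with PT-G (limma, adjusted p = 0.0306) and -0.31 with PT (adjusted p = 0.119).

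**Figure D4:**
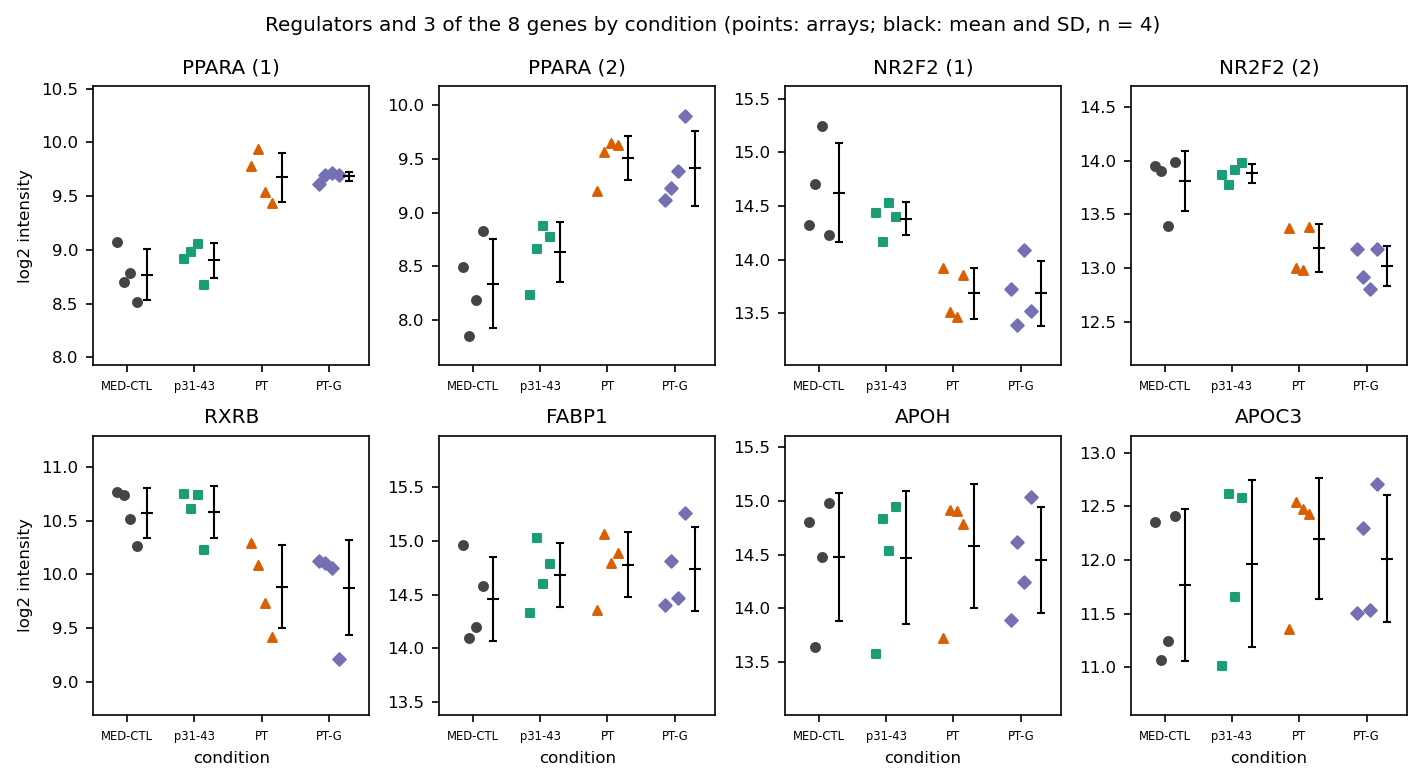
Log2 intensity by condition for PPARA and NR2F2 (2 probes each, numbered from the brightest in MED-CTL), RXRB, FABP1, APOH and APOC3; points are arrays, black marks the mean with its SD (n = 4), and every panel spans the same log2 range. The PT and PT-G arrays do not overlap the other 8 for the PPARA and NR2F2 probes shown, and overlap them for RXRB, FABP1, APOH and APOC3. They also overlap them for the dimmer PPARA probes, which are not shown.

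**Figure D5:**
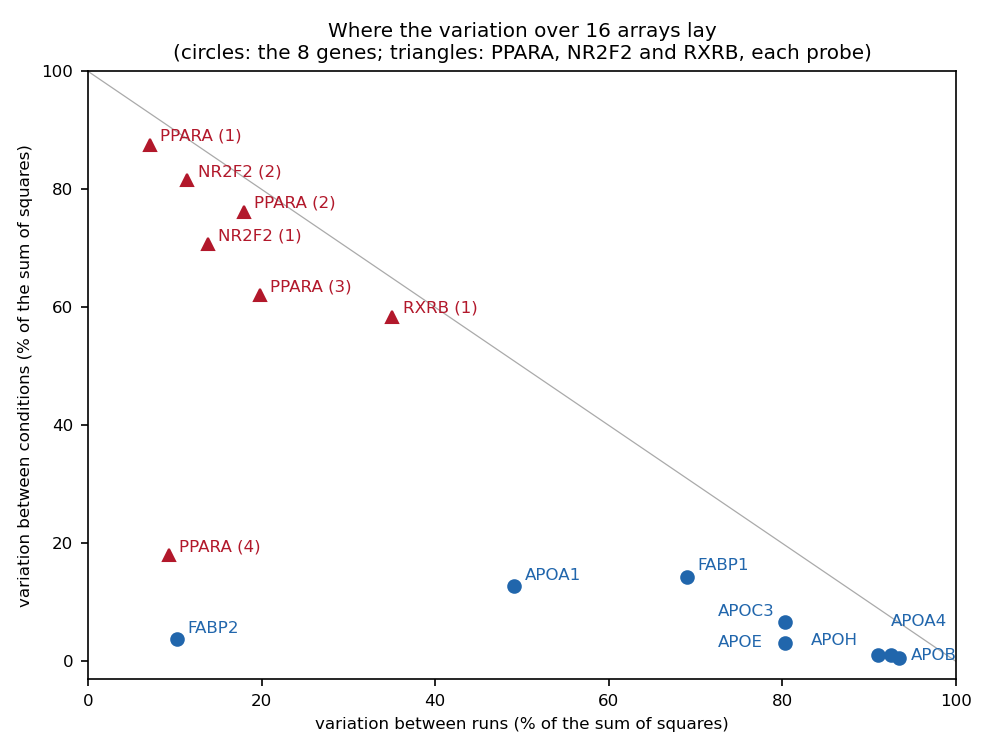
Share of the sum of squares between conditions against that between runs, for the 8 genes (blue circles, brightest probe) and for every probe of PPARA, NR2F2 and RXRB (red triangles, numbered from the brightest in MED-CTL). APOB, APOA4 and APOH lie at over 90% between runs, and the brightest PPARA probe lies at 87.5% between conditions. PPARA, NR2F2 and RXRB were named because they passed between conditions, and the 8 genes were chosen by symbol.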

How the data were processed

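RNA from 16 Caco-2 cultures, 4 per condition, was measured on single-colour Agilent arrays. The deposited scanner files hold intensity per spot, extracted by the authors' facility with Agilent Feature Extraction, and the deposited value table holds log2 intensities. Per the study's methods, the authors filtered and re-annotated the probes, normalized the median foreground by quantiles without background correction and tested with limma. Here the same normalization and test were run in R 4.3.3 with limma 3.58.1 on log2 median foreground. The study's probe filter and re-annotation were not repeated, and the numbers of all probes that passed differ from those in the paper. The 1639 control spots were left out, as were 1774 spots marked as outliers over all arrays. Spots of a probe were averaged, 18 of 41000 probes with too few unmarked arrays were dropped, and 40982 were tested in 1 model of 4 conditions (12 residual and 1.88 prior degrees of freedom). The threshold was a nominal p under 0.01, with Benjamini-Hochberg adjusted p-values over all probes. The fit was tested on simulated data. The study's methods describe 4 independent experiments, the labels number the 4 arrays of a condition as replicates, and runs were read from the names of the arrays. Alternatives were another background correction, normalization or value table, a filter on dim probes, a block for replicate number, run or slide, fits of 2 conditions, and leaving out each array. Pairing was not clear by replicate number or by run, since arrays that share either deviated together with r from -0.0054 to 0.857, and in 2 comparisons, that of PT with medium and that between the digests, not every pair exceeded 0.1. The run is used as a block since the names of the arrays give it. The members, lists and tests were chosen with earlier results of these data known. Named list genes were the up to 4 of largest change that passed in each comparison, and a few genes of the lists are not reported here and not counted. The number of arrays limits the precision.

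Accessions of the member probes matched their own symbol in RefSeq for 9 of 9 probes, and 23428 of 24857 RefSeq accessions on the array matched a current symbol.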

Additional observations from a re-analysis of the deposited data

Results flagged for a closer look

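In 3 of 36 sets of 4 arrays (9 probes in 4 conditions), 1 array lay far from the other 3, with a gap to its neighbour that passed Dixon's critical ratio to the whole range of the set. Chance alone gives this in about 1 set in 20. APOA4 on its brighter probe was 8.56 on PT-G replicate 2, against 8.11 to 8.12 on the other PT-G arrays. The same run was also the highest in the other conditions, with 8.56 to 8.62. APOC3 was 11.36 on PT replicate 1, against 12.43 to 12.54 on the other PT arrays. APOH was 13.72 on PT replicate 1, against 14.78 to 14.92. Run 1, to which that array belongs, had the lowest APOC3 and APOH value of every condition.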

How the results depend on the processing

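No member probe passed a nominal p under 0.01 in any of the 6 comparisons, and this count stayed 0 under all 9 alternatives and in all 16 fits that left out 1 array. With the replicate number as a block the count was 0 as well, and with the run as a block 0, where 9.16% of all probes passed in PT-G with MED-CTL and 10.3% in PT with MED-CTL. The smallest nominal p of a member in any fit was 0.0200 and the smallest adjusted p 0.140. The sign of a member's difference changed in 44 of 480 values under the alternatives and in 102 of 864 without 1 array, all of them below the threshold on both sides. With the dim-probe filter the FABP2 probe was not tested. Shares between runs moved most for APOE, from 80.3% to 93.3% with median scaling, for APOA1, from 49.1% to 62.3% with background-subtracted signal, and for the second APOA4 probe, from 12.5% to 30.6% with the latter. The cause was not tested. The calls of both NR2F2 probes and of the 2 brighter PPARA probes with PT and PT-G against MED-CTL held under all 9 alternatives and without any 1 array. That of the third PPARA probe with PT-G did so as well. The remaining named calls against MED-CTL did not. They were lost in 5 of 9 alternatives for LRP8 with either digest, and in 3 for RXRB with either digest and for APOA5. The call of PLIN2 was lost in 1, that of the third PPARA probe with PT in 2 and that of CD36 in 2 of 8. The precision is limited by 4 arrays a condition, with an SE of 0.42 to 0.44 for APOA1, APOB and APOC3 in the fit without a block.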
